A study of Mus musculus with 18 samples.

Results

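The comparison described here sets mouse lung fibroblasts that had entered a collagen gel against those that had stayed on top of it, 72 hours after plating. It takes 8 of the 18 samples of the series, the 4 labelled invading and the 4 labelled non-invading at 72 hours, and covers 19938 genes, each measured by the brightest of the array probe sets that carry its symbol alone. All samples came from MLg 2908, an established line of fibroblasts from the lung of newborn ddY mice, wild type by the labels and of undetermined sex, so the replicates are separate cultures of 1 line and not separate animals. The label field for treatment names the collagen invasion assay together with TGFB1 for every sample, whereas the sample titles name no added factor and the study's legend marks these cells as not treated. The remaining 10 samples hold the same fractions after 96 hours, 5 per fraction, and their values are given beside those of 72 hours without a test of the difference between the times.

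Fibroblasts make and remodel the collagen network of the lung, and in scarring lung disease they enter and cross matrix that resting cells do not. To pass through a fibrous gel a cell either widens the gaps by cutting the fibres with secreted or membrane-bound proteases or squeezes through by deforming its body and nucleus. The gel in this assay is a 3-dimensional surface on which a share of the cells moves inward without an added attractant while the rest remains on top.

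Labelled RNA was hybridised to whole-transcript arrays of the Affymetrix Mouse Gene 1.0 ST type, and every level below is a log2 signal as deposited. A ratio sets the invading over the non-invading fraction and is the difference of their mean log2 levels turned to the linear scale, n is 4 per fraction, and a gene passed when its adjusted p in limma, a linear model fitted over all probe sets, was under 0.10. In bulk RNA a smaller share of cells that express a gene and less RNA of it per cell cannot be told apart, here and in all results that follow.

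Of 14 fibroblast markers 12 had a mean level of at least 11.5, among them Fn1 and Vim, while Thy1 and Fap were at 6.18 and 4.52. Of these 14 markers 5 were lower in invading cells (Col1a1, Col1a2, Col3a1, S100a4 and Cdh11, 1.15-fold to 1.35-fold lower) and Pdgfrb was 1.21-fold higher. The calls of Col1a1, Col1a2 and S100a4 were lost with arrays centred on all probe sets, with the replicate block and without single samples, which were non-invading replicates 1, 2 and 4 for Col1a1, invading replicate 4 and non-invading replicates 1, 3 and 4 for Col1a2, and invading replicates 1 and 2 for S100a4. Epithelial, endothelial, macrophage and lymphocyte markers lay between 4.08 and 8.38. Krt8 was higher in invading cells (1 of 13 epithelial markers), as were Cd14 (1 of 9 macrophage markers), whose call was lost in 1 fit over all 18 samples, and Cd79a (1 of 8 lymphocyte markers), whose call was lost without invading replicate 2 and without non-invading replicate 1 or 3. On the linear scale the epithelial markers summed to 1115 to 1279 in invading and 1017 to 1143 in non-invading samples, and the macrophage markers to 839.8 to 914.0 and 749.5 to 782.1. Of 8 adipocyte and lipofibroblast markers Plin2 was 1.27-fold higher and Cidec 1.16-fold higher, a call lost under 9 alternatives, among them without any one of invading replicates 1, 2 and 4 or of non-invading replicates 1, 3 and 4, with sums of 2004 to 2334 in invading and 1597 to 1890 in non-invading samples. Lmod1 and Acta2 were lower among 10 smooth muscle and pericyte markers, and Acta2 lost its call under 7 alternatives, among them without any one of invading replicates 1 and 2 or of non-invading replicates 2 to 4. These markers summed to 7454 to 9853 and 10010 to 10730. Of 8 mesothelial markers Msln was 1.63-fold lower and Lrrn4 1.40-fold lower in invading cells, with sums of 1143 to 1524 in invading and 1673 to 2239 in non-invading samples, and the part of these markers in the results below was not tested. Signals of 2 samples of 1 fraction correlated at 0.9923 to 0.9953, above every one of the correlations between fractions (0.9775 to 0.9904). The first principal component held 64.2% of the variance and separated the fractions, with invading replicate 3 the nearest of its fraction to the non-invading samples.

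Of the 19938 genes 5293 passed, which is 26.5%. Levels were higher in invading cells for 2589 of them (13.0% of all genes) and lower for 2704 (13.6%). At a ratio above 1.5 the balance was uneven, with 174 genes higher (0.873%) and 538 lower (2.7%), and at a ratio above 2 there were 23 higher (0.115%) and 83 lower (0.416%). The 4 samples of one fraction lay wholly above those of the other for 4936 genes (24.8%), 2489 with invading above (12.5%) and 2447 below (12.3%). The share of higher genes among those that passed depended on the scaling of the arrays. It was 48.9% on the deposited scale, 68.4% after a second quantile normalization, 72.9% with arrays centred on their median over all probe sets and 60.3% with arrays centred over named probe sets. Among genes beyond 1.5-fold the same shares were 24.4%, 37.6%, 44.0% and 33.6%. More genes were therefore lower than higher beyond 1.5-fold under each of these 4 scalings. The shares that passed also rose with signal. In the upper 2 of 5 equal groups of genes ordered by mean level, 18.7% and 20% were higher and 24.6% and 24.6% lower, so a list count near these shares does not set the list apart from other genes.

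**Figure D1:**
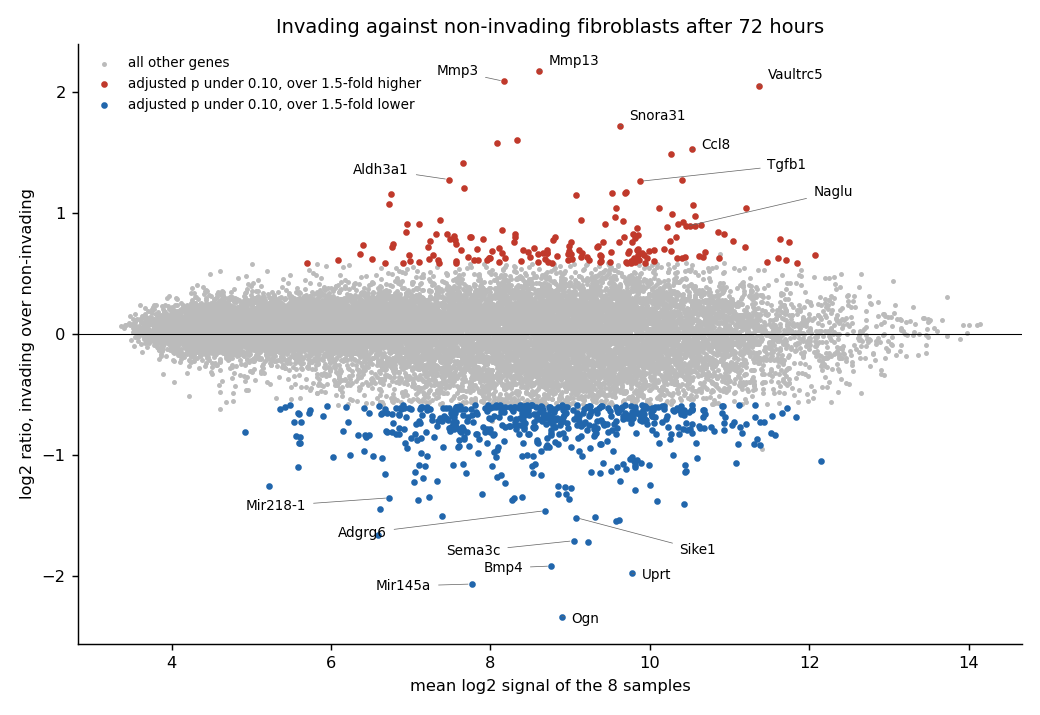
Each point is 1 of 19938 genes, placed by its mean log2 signal over the 8 samples and by its log2 ratio of invading over non-invading at 72 hours. Red points are the 174 genes that passed with a ratio above 1.5 and blue points the 538 genes lower by more than 1.5-fold, and the highest and lowest labelled genes are Mmp13 at 2.17 and Ogn at -2.34.

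Matrix metalloproteinases, the secreted and membrane-bound zinc enzymes that cut collagen and other matrix proteins, stood apart from the other protease lists by their direction. Of 22 measured members 12 were higher and 1 lower, against 13.0% and 13.6% of all genes, and the median log2 ratio of the family was 0.25 against 0.04 for all genes. Mmp13, a collagenase that cuts fibrillar collagen, read 9.53, 9.67, 9.68 and 9.89 in invading replicates 1 to 4 and 7.43, 7.05, 7.51 and 8.09 in the non-invading ones. That is a level 4.51-fold higher in invading cells (log2 ratio 2.17 ± 0.19 SE, adjusted p = 0.000407), and each invading sample lay more than 1 log2 unit above the highest non-invading sample. At 96 hours its log2 ratio was 3.21.

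Mmp10, a stromelysin that cuts many non-fibrillar matrix proteins, had levels of 8.59, 8.88, 8.32 and 7.67 in invading and 7.09, 6.76, 7.04 and 6.92 in non-invading samples. It was 2.67-fold higher (log2 ratio 1.41 ± 0.22 SE, adjusted p = 0.00323), with invading replicate 4 nearest to the non-invading samples and no overlap. Mmp11, a stromelysin typical of stromal fibroblasts, read 12.09, 12.25, 11.79 and 11.98 in invading and 11.46, 11.16, 11.14 and 11.20 in non-invading samples. Its level was 1.73-fold higher in invading cells (log2 ratio 0.79 ± 0.11 SE, adjusted p = 0.00217). Mmp14, the membrane-anchored collagenase that also activates Mmp2, was picked out after its values had been seen. It read 12.70, 12.82, 12.60 and 12.46 against 12.20, 12.09, 12.12 and 12.18 and was 1.41-fold higher (log2 ratio 0.50 ± 0.08 SE, adjusted p = 0.00438). Mmp2, a gelatinase, had a log2 ratio of 0.13 with overlapping fractions (adjusted p = 0.242), and Mmp16 was the single member that passed as lower (log2 ratio -0.25, adjusted p = 0.0569), a call that was lost under 8 alternative settings.

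Genes of this family lie side by side in a cluster on mouse chromosome 9, and they were grouped by that position after their values had been seen. Of the 10 measured cluster members 6 were higher. Besides Mmp13, Mmp3 and Mmp10 these were Mmp12, the macrophage elastase (log2 ratio 0.75, adjusted p = 0.00968), Mmp8, the neutrophil collagenase (log2 ratio 0.52, adjusted p = 0.00413), and Mmp7, matrilysin (log2 ratio 0.27, adjusted p = 0.0594), whose call was lost without any one of invading replicates 1 to 3 and non-invading replicates 1 and 3. Mmp1a, Mmp1b, Mmp20 and Mmp27 did not pass, with log2 ratios of 0.15, 0.11, 0.08 and 0.15 and fractions that overlapped. Genes that passed and genes that did not thus stood in the same cluster.

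The letters TGACTCA, the recognition sequence of the AP-1 factors, stood in the 250 bases before the start of 7 of the 17 family members with a promoter sequence (41.2%), compared with 4.74% of 15563 measured genes. The 7 genes were Mmp12, Mmp10, Mmp13, Mmp3 and Mmp7, which were higher, and Mmp1a and Mmp1b, which did not pass. Promoters of the family members with the largest ratios are shown because all of these hold the letters within 70 bases of the start. They are taken from RefSeq (build GRCm38.p6) and written 5′ to 3′ on the gene's strand, with TGACTCA or its complement TGAGTCA in capitals.
Mmp13 (chr9:7272264-7272513, plus strand): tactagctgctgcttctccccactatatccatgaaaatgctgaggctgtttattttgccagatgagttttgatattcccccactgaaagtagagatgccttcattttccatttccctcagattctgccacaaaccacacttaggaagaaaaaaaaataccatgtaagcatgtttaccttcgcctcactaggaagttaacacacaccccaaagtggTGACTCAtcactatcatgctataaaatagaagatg
Mmp3 (chr9:7445572-7445821, plus strand): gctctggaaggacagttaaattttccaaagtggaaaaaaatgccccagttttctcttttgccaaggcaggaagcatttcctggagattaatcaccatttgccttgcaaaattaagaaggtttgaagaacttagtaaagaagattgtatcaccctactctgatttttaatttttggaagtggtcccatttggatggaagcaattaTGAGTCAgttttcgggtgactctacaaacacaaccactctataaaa
Mmp10 (chr9:7502092-7502341, plus strand): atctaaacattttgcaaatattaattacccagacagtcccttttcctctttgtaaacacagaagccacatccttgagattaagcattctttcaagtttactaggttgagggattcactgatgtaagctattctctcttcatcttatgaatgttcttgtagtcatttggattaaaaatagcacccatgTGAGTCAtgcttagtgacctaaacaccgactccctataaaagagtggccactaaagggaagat
The letters occupied bases 35 to 29 before the start of Mmp13, 46 to 40 before that of Mmp3 and 63 to 57 before that of Mmp10. A match of letters is a description of the sequence, and no binding was measured.

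Of 26 ADAM and ADAMTS proteases, which shed membrane proteins and cut proteoglycans, 1 was higher and 11 were lower, and 7 were lower when arrays were centred on all probe sets. All genes in the level group of their median, 8.55, were higher for 18.7% and lower for 24.6%. Adamts5, the main enzyme that cuts aggrecan and versican, read 10.02, 9.76, 10.10 and 9.74 in invading and 10.94, 10.75, 11.17 and 11.08 in non-invading samples. It was 2.12-fold lower (log2 ratio -1.08 ± 0.12 SE, adjusted p = 0.000816), and the highest invading sample stayed below the lowest non-invading one. Adamts6 was 2.27-fold lower (log2 ratio -1.18 ± 0.15 SE, adjusted p = 0.00127), and Adamts7, which cuts cartilage oligomeric matrix protein, was the member that was higher (ratio 1.59, adjusted p = 0.0137).

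Among inhibitors of these enzymes Timp3, which binds to the matrix and blocks both metalloproteinases and ADAMTS enzymes, had levels of 10.93, 10.76, 10.75 and 10.89 in invading and 11.48, 11.41, 11.64 and 11.80 in non-invading samples. Its level was 1.68-fold lower (log2 ratio -0.75 ± 0.09 SE, adjusted p = 0.00136), without overlap. Timp1 and Timp2, its soluble relatives, did not pass, Timp1 at a log2 ratio of 0.10 (adjusted p = 0.343) and Timp2 at 0.06 (adjusted p = 0.51), and whether the 3 inhibitors differ from each other was not tested.

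Collagens, the substrate and product of these cells, were lower for 8 (32%) and higher for 3 (12%) of 25 measured chains, against 13.6% and 13.0% of all genes. In the level group that holds their median of 8.35, 24.6% of all genes were lower and 18.7% higher, and the difference from that group was not tested. The number of lower chains was 5 without non-invading replicate 1 and 5 with arrays centred on all probe sets. Col12a1, which coats fibrils of collagen I, read 9.06, 8.89, 9.62 and 9.08 against 10.15, 10.26, 10.57 and 10.84 and was 2.45-fold lower in invading cells (log2 ratio -1.29 ± 0.19 SE, adjusted p = 0.00227). Col11a1, a chain that sets fibril width, was 1.48-fold lower (log2 ratio -0.57 ± 0.09 SE, adjusted p = 0.00277). The share of higher chains was near that of all genes. These 3 were chains of basement membrane collagens, Col4a2 at a ratio of 1.5 (adjusted p = 0.0174), Col18a1 at 1.53 (adjusted p = 0.0198) and Col4a1 at 1.32 (adjusted p = 0.0936), and the call of Col4a1 was lost under 9 alternatives, among them without any one of invading replicates 1 to 3 or of the non-invading replicates. Col6a1, Col6a2 and Col6a3, the chains of microfibrillar collagen VI, did not pass.

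Elastic fibre genes were lower for 8 (32%) and higher for 2 (8%) of 25, against 24.6% and 20% of all genes in the level group of their median, 9.92. Fbln5, which organises elastin on the cell surface, was 1.41-fold lower (log2 ratio -0.49 ± 0.06 SE, adjusted p = 0.0014), and Lox, the enzyme that crosslinks collagen and elastin, was 1.40-fold lower (log2 ratio -0.48 ± 0.10 SE, adjusted p = 0.0122). Of 13 genes of hyaluronan metabolism 3 were lower (23.1%) and 1 was higher (7.69%), against 13.6% and 13.0% of all genes. Cemip, which starts the breakdown of hyaluronan, read 9.48, 9.50, 9.30 and 9.32 in invading and 10.53, 10.69, 10.78 and 11.13 in non-invading samples, a level 2.61-fold lower (log2 ratio -1.38 ± 0.12 SE, adjusted p = 0.000415) with the fractions more than 1 log2 unit apart at their closest. Has2, the main hyaluronan synthase of fibroblasts, was 1.78-fold lower at 72 hours (log2 ratio -0.84 ± 0.18 SE, adjusted p = 0.011), and its log2 ratio at 96 hours was -0.17.

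**Figure D2:**
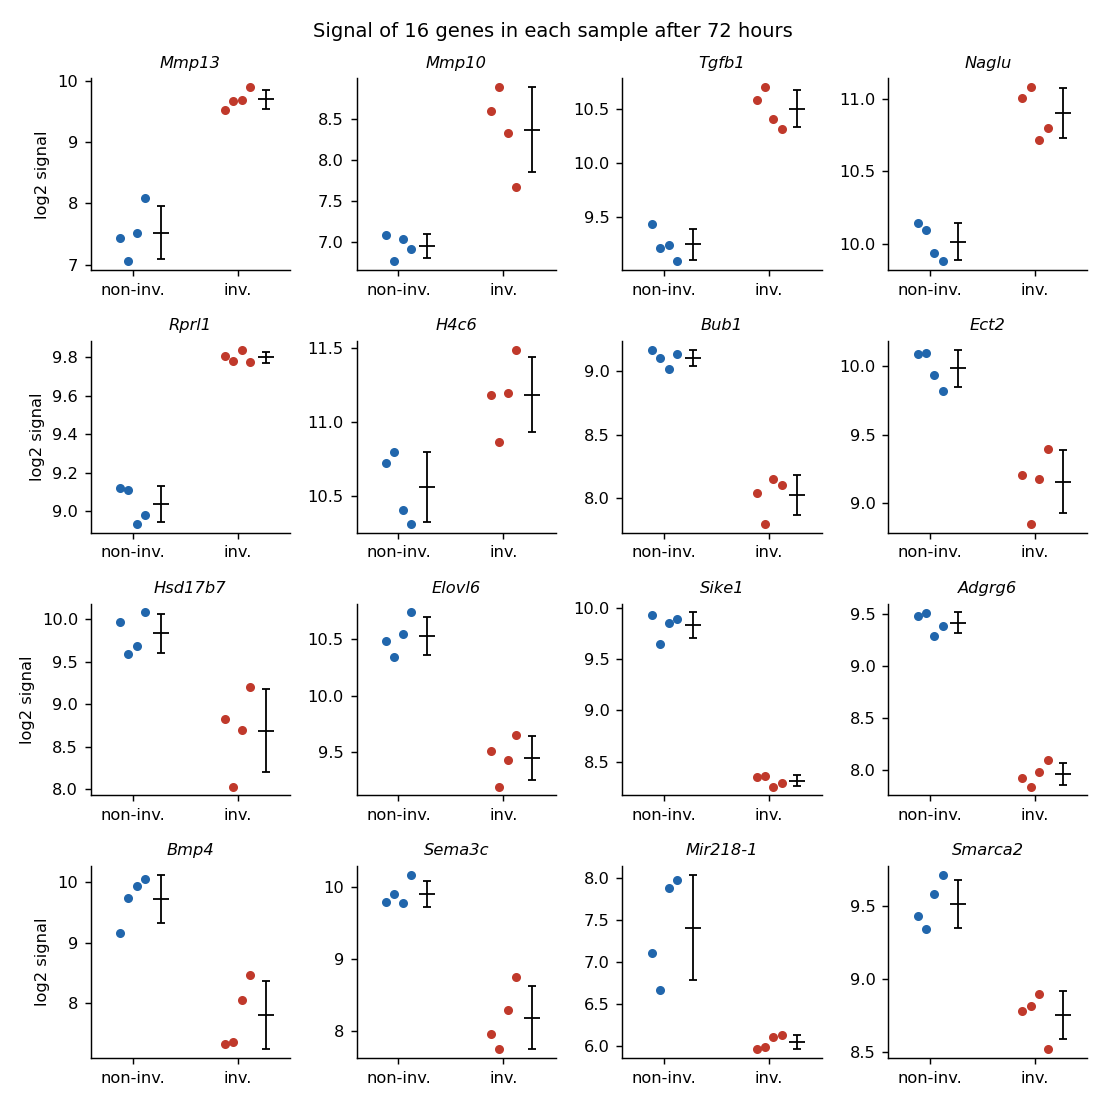
Points are the log2 signal of each sample at 72 hours for 16 genes, non-invading in blue and invading in red, and the bar beside each set is the mean ± SD of 4 samples. In every panel the fractions do not overlap, and the scale differs between panels.

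Genes of mitosis formed the list with the largest share of lower members. Of 51 genes of G2 and M phase, which build the spindle and check chromosome attachment, 31 were lower and 0 higher in invading cells, against 13.6% and 13.0% of all genes. The median log2 ratio of the list was -0.41, and invading samples lay wholly below non-invading ones for 28 members, against 12.3% of all genes. Bub1, a kinase of the spindle checkpoint, had levels of 8.04, 7.80, 8.16 and 8.11 in invading and 9.16, 9.10, 9.01 and 9.13 in non-invading samples. That is 2.11-fold lower (log2 ratio -1.07 ± 0.09 SE, adjusted p = 0.000313), with the spread within either fraction below 0.4 log2 units and a gap of more than 0.8 between them. Ect2, the exchange factor that activates RhoA for cytokinesis, read 9.21, 8.85, 9.18 and 9.40 against 10.09, 10.10, 9.93 and 9.82 and was 1.77-fold lower (log2 ratio -0.82 ± 0.12 SE, adjusted p = 0.00225).

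Ncapg, a subunit of the condensin complex that compacts chromosomes, was 1.76-fold lower (log2 ratio -0.81 ± 0.14 SE, adjusted p = 0.00471), and Kif18a, a motor that aligns chromosomes, was 1.77-fold lower (log2 ratio -0.83 ± 0.13 SE, adjusted p = 0.00281). Not every member of the list passed. Cdk1, the kinase that starts mitosis, read 11.70, 11.63, 11.75 and 11.88 in invading and 11.83, 11.81, 11.64 and 11.61 in non-invading samples, so that the fractions overlapped (log2 ratio 0.02, adjusted p = 0.907). Aurkb had a log2 ratio of -0.14 (adjusted p = 0.55) and Bub3 of -0.03. At 96 hours the median log2 ratio of the list was 0.00, with 6 members higher and 6 lower, and the log2 ratios were -0.40 for Bub1, -0.14 for Ect2 and 0.00 for Ncapg.

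Promoters of this list were searched for the letters of cell cycle motifs. CCAAT, read by the factor NF-Y, was present in 30 of 44 members with a promoter (68.2%) and in 38.9% of all measured genes, and TTTGAA, a form of the CHR element bound by the DREAM complex, in 14 of 44 (31.8%) and in 15.7% of all. The other CHR form searched, TTTAAA, was in 5 of 44 (11.4%) and in 12.6% of all. TTTGAA was also in 5 of 17 metalloproteinase promoters (29.4%) and in 6 of 26 of the NRF2 list (23.1%). Both CCAAT and TTTGAA stood before Ect2, Ncapg, Ccnb2, Kif11, Mki67, Top2a, Prc1 and Ube2c, which were lower. They also stood together before Cdc20, Kif22, Bub3, Ccnf and Cdk1, which did not pass. The promoters of Ect2 and Ncapg are shown as examples of lower genes that hold both, with CCAAT or its complement ATTGG and TTTGAA in capitals (RefSeq, GRCm38.p6, 5′ to 3′ on the gene's strand).
Ect2 (chr3:27153855-27154104, minus strand): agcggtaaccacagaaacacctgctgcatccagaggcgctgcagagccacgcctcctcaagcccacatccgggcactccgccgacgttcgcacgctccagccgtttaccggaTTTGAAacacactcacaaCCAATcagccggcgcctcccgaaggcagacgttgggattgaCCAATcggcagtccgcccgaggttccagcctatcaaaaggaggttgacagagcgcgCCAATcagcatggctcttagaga
Ncapg (chr5:45669675-45669924, plus strand): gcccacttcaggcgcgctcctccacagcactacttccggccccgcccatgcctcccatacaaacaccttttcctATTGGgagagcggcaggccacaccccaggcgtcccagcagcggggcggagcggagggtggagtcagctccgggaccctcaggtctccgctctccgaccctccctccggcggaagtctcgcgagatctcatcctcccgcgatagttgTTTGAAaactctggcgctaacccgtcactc
TTTGAA stood 30 to 25 bases before the start of Ncapg and 138 to 133 bases before that of Ect2. RefSeq lists 2 starts for Ect2, and the window belongs to 1 of them.

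Genes of DNA replication moved less than those of mitosis. Of 56 measured genes 18 were lower (32.1%) and 1 was higher (1.79%), with a median log2 ratio of -0.07. The level group of their median, 8.85, had 24.6% of all genes lower and 18.7% higher, and the difference from it was not tested. When arrays were centred on all probe sets 11 of the replication genes were lower. Pole2, a subunit of the leading strand polymerase, read 8.02, 7.86, 7.94 and 7.95 in invading and 8.87, 8.91, 8.48 and 8.40 in non-invading samples and was 1.65-fold lower (log2 ratio -0.73 ± 0.12 SE, adjusted p = 0.00421). Rrm2, the regulated subunit of ribonucleotide reductase, was 1.46-fold lower (log2 ratio -0.54 ± 0.14 SE, adjusted p = 0.0282). Mcm2 and Mcm7, subunits of the replicative helicase, had log2 ratios of -0.08 and 0.05 and did not pass. At 96 hours 13 members of this list were higher and 3 lower.

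Histone genes that are transcribed for replication were more often higher than lower. Of 31 measured genes 10 were higher (32.3%) and 1 lower (3.23%), and their median log2 ratio was 0.19. The level group of their median, 8.42, had 18.7% of all genes higher and 24.6% lower. H4c6, a gene of histone H4, read 11.18, 10.87, 11.20 and 11.49 in invading and 10.72, 10.80, 10.40 and 10.31 in non-invading samples and was 1.55-fold higher (log2 ratio 0.63 ± 0.15 SE, adjusted p = 0.0187), and H4f16, another H4 gene, was 1.56-fold higher (log2 ratio 0.64 ± 0.13 SE, adjusted p = 0.00881). H2bc4 was the member that was lower (ratio 0.762, adjusted p = 0.0171). The count of higher histone genes fell to 3 with the replicate block and to 3 at an adjusted p under 0.05. Of all 19938 genes 1920 passed as higher with that block and 1651 at that threshold. The histone count also moved with single samples, as 4 passed without invading replicate 1 and 4 without invading replicate 4. It was 5 without non-invading replicate 3 and 3 without non-invading replicate 4. Genes of these families are near-identical in their coding sequence, so that signal of 1 member can include that of others.

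Of 38 cyclins, inhibitors and p53 targets, which regulate entry into the cell cycle, 8 were higher (21.1%) and 10 lower (26.3%), close to the shares of all genes at their median level of 9.41. Rb1, the pocket protein that holds back E2F factors, read 8.24, 7.92, 8.44 and 8.01 in invading and 9.16, 8.97, 9.21 and 9.15 in non-invading samples, 1.96-fold lower (log2 ratio -0.97 ± 0.12 SE, adjusted p = 0.00118) without overlap. Gadd45a, a stress gene that slows the passage into mitosis, had levels of 10.44, 10.40, 10.19 and 10.003 against 9.73, 9.38, 9.62 and 9.69 and was 1.57-fold higher (log2 ratio 0.65 ± 0.12 SE, adjusted p = 0.00538). Mdm2, the ligase that degrades p53, was 1.43-fold lower (log2 ratio -0.52 ± 0.12 SE, adjusted p = 0.0148), while Btg1, an antiproliferative factor, was 1.34-fold higher (log2 ratio 0.42 ± 0.07 SE, adjusted p = 0.00438).

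**Figure D3:**
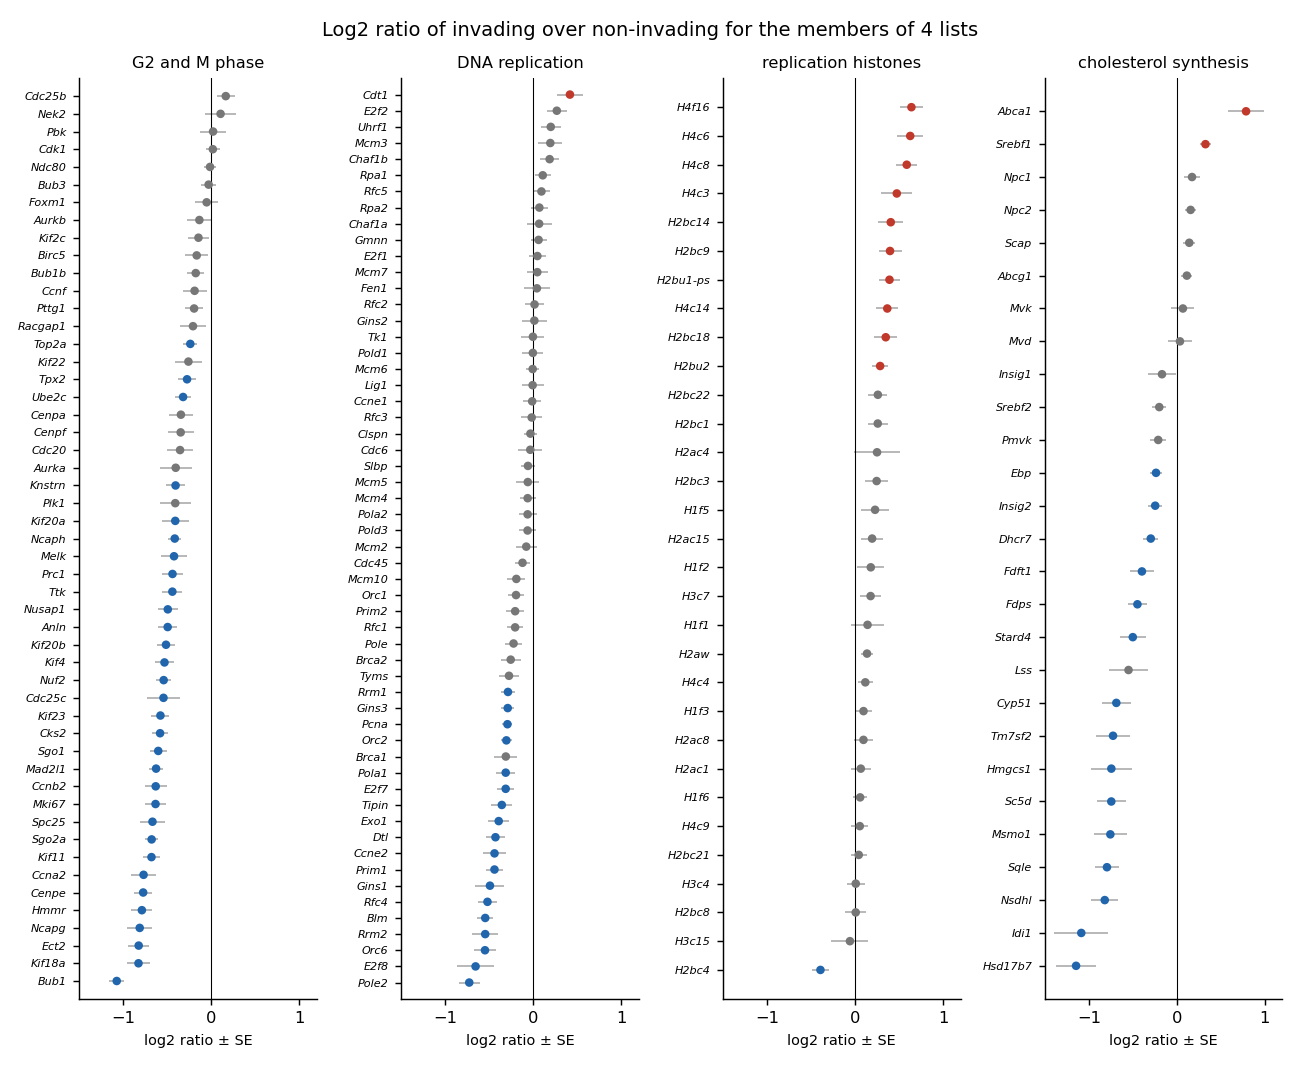
Each row is a measured gene of 4 lists, placed by its log2 ratio of invading over non-invading at 72 hours with the standard error from limma as the bar. Red and blue points passed as higher and lower and grey points did not pass, and the panels show 31 of 51 G2 and M phase genes, 18 of 56 replication genes, 1 of 31 histone genes and 15 of 27 cholesterol genes in blue.

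Cholesterol synthesis had the largest share of lower genes among the metabolic lists. Of 27 measured members 15 were lower (55.6%) and 2 higher (7.41%), and the median log2 ratio was -0.30. The level group of their median, 9.95, had 24.6% of all genes lower and 20% higher. Hsd17b7, which reduces a sterol intermediate, read 8.83, 8.03, 8.70 and 9.20 in invading and 9.97, 9.59, 9.69 and 10.08 in non-invading samples. It was 2.21-fold lower (log2 ratio -1.15 ± 0.22 SE, adjusted p = 0.00815), and invading replicate 2 lay lowest. Sqle, the monooxygenase that commits squalene to sterols, had levels of 10.06, 9.72, 10.28 and 10.24 against 10.88, 10.67, 10.88 and 11.05 and was 1.73-fold lower (log2 ratio -0.79 ± 0.13 SE, adjusted p = 0.00399). Nsdhl, which removes methyl groups from sterols, was 1.76-fold lower (log2 ratio -0.82 ± 0.15 SE, adjusted p = 0.0063). For Idi1, an isomerase of the isoprenoid branch, the values 9.04, 8.46, 9.42 and 10.18 and 10.38, 10.14, 10.35 and 10.57 overlapped through invading replicate 4, and its ratio of 0.471 passed with an adjusted p of 0.0352.

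The members that were higher do not make cholesterol. Abca1, the transporter that exports cholesterol from the cell, read 7.95, 8.46, 7.54 and 7.60 in invading and 7.49, 7.06, 6.95 and 6.91 in non-invading samples, 1.72-fold higher (log2 ratio 0.79 ± 0.21 SE, adjusted p = 0.0275). Srebf1, a factor that drives fatty acid genes, was 1.25-fold higher (log2 ratio 0.33 ± 0.06 SE, adjusted p = 0.00791), while Srebf2, the factor that drives sterol genes, did not pass (log2 ratio -0.20, adjusted p = 0.12). Apoe, the lipoprotein that takes up exported cholesterol, was outside this list and was 2.24-fold higher (log2 ratio 1.16 ± 0.20 SE, adjusted p = 0.00469), with invading replicate 2 highest at 10.77. At 96 hours 14 members of the cholesterol list were lower and 7 higher.

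CCAAT was found before 19 of the 21 cholesterol genes with a promoter (90.5%), against 38.9% of all measured genes. Among these 19 Srebf1 was higher, Lss, Mvk, Mvd, Srebf2, Insig1, Npc2 and Pmvk did not pass, and the others were lower. TCACNCCAC, a core of the sterol regulatory element, was found before 1 of 21 (4.76%) against 1.2%. The promoter of the gene with the lowest ratio is shown with its 3 copies of ATTGG in capitals (RefSeq, GRCm38.p6, 5′ to 3′ on the gene's strand).
Hsd17b7 (chr1:169969206-169969455, minus strand): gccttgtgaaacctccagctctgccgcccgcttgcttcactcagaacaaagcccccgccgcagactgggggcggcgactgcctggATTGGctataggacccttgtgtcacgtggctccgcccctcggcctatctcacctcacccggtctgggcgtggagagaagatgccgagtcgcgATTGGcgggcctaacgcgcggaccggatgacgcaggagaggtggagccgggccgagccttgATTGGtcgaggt
The copies began 165, 73 and 12 bases before the start.

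In the wider set of 44 fatty acid and lipid genes 14 were lower (31.8%) and 8 higher (18.2%), against 24.6% and 20% of all genes in the level group of their median, 9.69. The 8 became 5 without invading replicate 2 or without non-invading replicate 3 and 13 with arrays centred on all probe sets. Elovl6, which lengthens saturated fatty acids, read 9.51, 9.19, 9.43 and 9.65 in invading and 10.48, 10.34, 10.55 and 10.74 in non-invading samples, 2.12-fold lower (log2 ratio -1.08 ± 0.12 SE, adjusted p = 0.000796). Scd1, the desaturase that makes oleic acid, was 1.73-fold lower (log2 ratio -0.79 ± 0.13 SE, adjusted p = 0.00356). Fasn and Acly, which build the carbon chain upstream of both, did not pass, with log2 ratios of 0.03 and -0.14. Plin2, a coat protein of lipid droplets, was 1.27-fold higher (log2 ratio 0.34 ± 0.09 SE, adjusted p = 0.0303).

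Genes of lysosomes and autophagy were higher for 18 (42.9%) and lower for 2 (4.76%) of 42 members, and their median log2 ratio was 0.18. The level group of their median, 10.26, had 20% of all genes higher and 24.6% lower. Naglu, which degrades heparan sulfate, read 11.01, 11.08, 10.72 and 10.80 in invading and 10.14, 10.09, 9.93 and 9.88 in non-invading samples. It was 1.85-fold higher (log2 ratio 0.89 ± 0.10 SE, adjusted p = 0.000997), and the gap between the fractions was larger than the spread within either. Hexa, a subunit of the hexosaminidase that clears gangliosides, had levels of 12.36, 12.61, 12.47 and 12.18 against 11.81, 11.76, 11.69 and 11.72 and was 1.58-fold higher (log2 ratio 0.66 ± 0.09 SE, adjusted p = 0.00217). Gla, the galactosidase of lysosomes, was 1.46-fold higher (log2 ratio 0.55 ± 0.11 SE, adjusted p = 0.0107), and Atg7, the enzyme that activates the conjugation step of autophagy, was 1.5-fold higher (log2 ratio 0.58 ± 0.07 SE, adjusted p = 0.00138).

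Other members did not pass. Lamp1, the main membrane glycoprotein of lysosomes, had a log2 ratio of 0.08 (adjusted p = 0.42), and Psap, the precursor of saposins, of 0.12 (adjusted p = 0.276). Atg12 and Ulk2 of the autophagy branch were lower, Atg12 by a log2 ratio of -0.32 (adjusted p = 0.0104) and Ulk2 by -0.31 (adjusted p = 0.022). The CLEAR element CACGTGAC, to which TFEB binds, occurred before 8 of 35 members with a promoter (22.9%) and before 2.88% of all measured genes. It was also before 3 of 21 cholesterol genes (14.3%), among them Hsd17b7, and before 4 of 31 YAP and TAZ partners and targets (12.9%). In that last list 16 of 38 members were lower (42.1%) and 4 higher (10.5%). The level group of its median, 9.78, had 24.6% of all genes lower and 20% higher. Of the 8 lysosome and autophagy genes Gla, Naglu, Atg7 and Mcoln1 were higher, while Glb1, Cln3, Lamp1 and Atg3 did not pass. The promoter of the member with the largest ratio is shown with its copy, GTCACGTG on this strand, in capitals 75 to 68 bases before the start (RefSeq, GRCm38.p6, 5′ to 3′).
Naglu (chr11:101069844-101070093, plus strand): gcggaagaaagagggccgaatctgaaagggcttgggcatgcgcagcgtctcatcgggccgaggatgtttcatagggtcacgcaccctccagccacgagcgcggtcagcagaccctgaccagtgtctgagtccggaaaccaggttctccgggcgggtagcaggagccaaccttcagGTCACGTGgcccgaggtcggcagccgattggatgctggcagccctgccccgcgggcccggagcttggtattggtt
At 96 hours 25 members of the list were higher and 2 lower.

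Enzymes that remove reactive aldehydes or handle retinoids were mostly higher or did not pass. Of 30 aldehyde dehydrogenase and retinoid genes 11 were higher (36.7%) and 1 lower (3.33%). All genes in the level group of their median, 7.25, were higher for 14.7% and lower for 14.5%. After a second quantile normalization or with arrays centred on all probe sets, 17 to 18 of the list were higher. Aldh3a1, which oxidises lipid aldehydes, read 8.34, 8.45, 7.86 and 7.83 in invading and 6.91, 6.75, 6.85 and 6.86 in non-invading samples and was 2.42-fold higher (log2 ratio 1.28 ± 0.14 SE, adjusted p = 0.00091). Aldh2, the mitochondrial enzyme that oxidises acetaldehyde, was 1.55-fold higher (log2 ratio 0.63 ± 0.07 SE, adjusted p = 0.000907). Rxra, a partner of retinoic acid receptors, was 1.41-fold higher (log2 ratio 0.50 ± 0.09 SE, adjusted p = 0.00575).

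Of 27 metal handling genes, with a median level of 9.67, 7 were higher (25.9%) and 9 lower (33.3%), against 20% and 24.6% of all genes in that level group. Slc11a2, the carrier that moves iron out of endosomes, had levels of 10.42, 10.55, 10.36 and 10.35 in invading and 9.89, 9.85, 9.84 and 9.88 in non-invading samples, 1.47-fold higher (log2 ratio 0.55 ± 0.07 SE, adjusted p = 0.0011). Steap3, the reductase that readies iron for this carrier, was 1.44-fold higher (log2 ratio 0.53 ± 0.07 SE, adjusted p = 0.00181). Ireb2, which represses or stabilises iron mRNAs, was 1.41-fold lower (log2 ratio -0.49 ± 0.09 SE, adjusted p = 0.00605), and Slc39a10, a zinc importer, was 1.41-fold lower (log2 ratio -0.50 ± 0.10 SE, adjusted p = 0.00879). Fth1, the heavy chain of ferritin, did not pass (log2 ratio 0.11, adjusted p = 0.213).

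Small non-coding RNAs that work in protein complexes differed by class. H/ACA RNAs, which guide the change of uridine to pseudouridine, were higher for 14 of 20 measured members and lower for 0, and their median log2 ratio was 0.81. The level group of their median, 10.37, had 20% of all genes higher and 24.6% lower. C/D RNAs, which guide methylation of ribose, were higher for 5 and lower for 4 of 31, with a median log2 ratio of -0.01. The level group of their median, 9.27, had 18.7% of all genes higher and 24.6% lower. The count of higher C/D RNAs was 12 without invading replicate 1, and that of lower ones was 7 without invading replicate 3. Snora73a, an H/ACA RNA of ribosome processing, read 11.60, 11.91, 11.75 and 11.66 in invading and 10.89, 10.65, 10.64 and 10.57 in non-invading samples and was 2.06-fold higher (log2 ratio 1.04 ± 0.09 SE, adjusted p = 0.00045). In Snora20 the invading values were 7.44, 9.21, 9.32 and 9.51 and the non-invading ones 7.33, 7.14, 7.29 and 7.39. Its ratio of 2.99 (adjusted p = 0.0221) came from invading replicates 2 to 4, since replicate 1 lay just above the highest non-invading sample.

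The RNAs of RNase P, RNase MRP and telomerase were higher in each of 5 cases measured, with a median log2 ratio of 0.76. The level group of their median, 11.75, had 20% of all genes higher. Rprl1, annotated as a relative of the RNase P RNA, had levels of 9.80, 9.78, 9.84 and 9.77 in invading and 9.12, 9.11, 8.93 and 8.98 in non-invading samples. The invading samples differed among each other by less than 0.1 log2 units, and the level was 1.70-fold higher (log2 ratio 0.76 ± 0.07 SE, adjusted p = 0.000389). Terc, the template of telomerase, read 12.23, 12.17, 12.09 and 12.05 against 11.59, 11.49, 11.30 and 11.09 and was 1.70-fold higher (log2 ratio 0.76 ± 0.11 SE, adjusted p = 0.00213). Rmrp, the RNA of RNase MRP, was 1.35-fold higher (log2 ratio 0.44 ± 0.06 SE, adjusted p = 0.00226).

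C/D RNAs gave values in both directions. Snord95 read 7.25, 7.65, 7.60 and 7.69 in invading and 8.85, 8.74, 8.75 and 8.51 in non-invading samples, 2.24-fold lower (log2 ratio -1.16 ± 0.11 SE, adjusted p = 0.000557), and Snord42a was 2.58-fold lower (log2 ratio -1.37 ± 0.25 SE, adjusted p = 0.00575), with invading replicate 1 lowest at 7.47. Rnu3a, the U3 RNA that takes part in cutting the ribosomal precursor, was 2.26-fold higher (log2 ratio 1.18 ± 0.17 SE, adjusted p = 0.00256). The array was designed with probes for whole transcripts, and a probe set in a small RNA that lies in an intron can also bind RNA of its host.

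**Figure D4:**
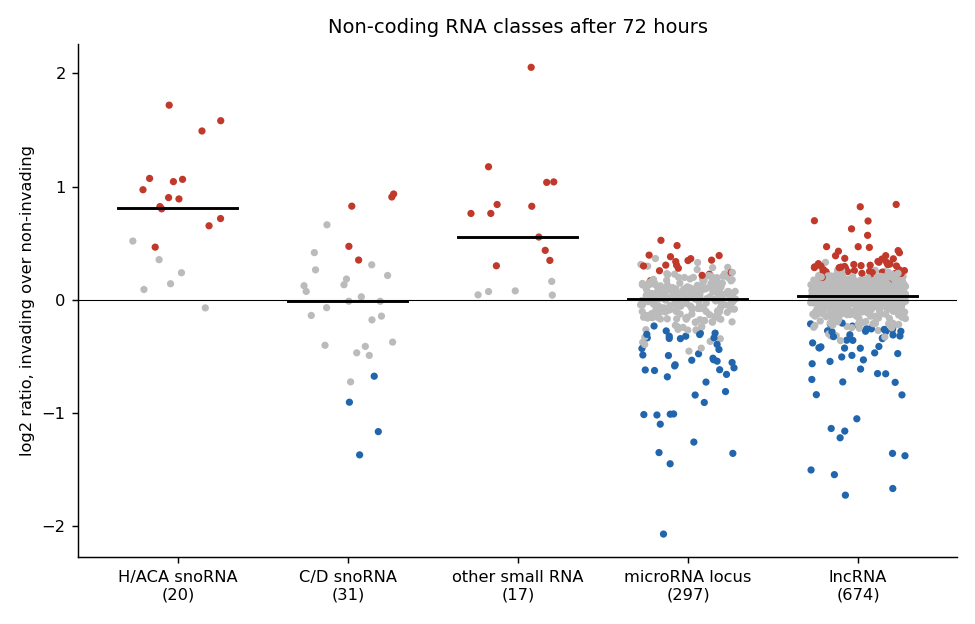
Points are the log2 ratios of invading over non-invading at 72 hours for the measured members of 5 classes of non-coding RNA, red and blue where a gene passed as higher or lower, and the black line is the median of the class. The class of other small RNAs holds RNAs of RNase P, RNase MRP, telomerase, the spliceosome, Cajal bodies, Y particles and vaults. The H/ACA class lies highest with a median of 0.81, while the microRNA loci reach below -2 and have no member that passed as higher by more than 1.5-fold.

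Ribosomal proteins were higher for 21 (39.6%) and lower for 2 (3.77%) of 53 genes. The level group of their median, 12.43, had 20% of all genes higher and 24.6% lower. With arrays centred on all probe sets or with an intensity trend and robust estimation in limma, 32 of the list were higher. Rpl24 read 11.59, 11.65, 11.65 and 11.59 in invading and 11.26, 11.13, 10.96 and 11.03 in non-invading samples, 1.44-fold higher (log2 ratio 0.52 ± 0.08 SE, adjusted p = 0.00232), and Rps14 was 1.33-fold higher (log2 ratio 0.41 ± 0.07 SE, adjusted p = 0.00425). Rpl12 went the other way at 8.01, 8.37, 7.89 and 7.68 against 8.94, 8.81, 8.75 and 8.47, 1.69-fold lower (log2 ratio -0.76 ± 0.15 SE, adjusted p = 0.00898). Rplp0, a stalk protein of the large subunit, did not pass (log2 ratio 0.05, adjusted p = 0.632). These genes have many processed copies in the genome, so that signal from copies cannot be separated from that of the gene.

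MicroRNA loci were lower more often than higher beyond 1.5-fold. The array measured 300 names of this kind, of which 47 were lower (15.7%) and 18 higher (6%), against 13.6% and 13.0% of all genes. The share of lower names was thus near that of all genes, while the level group of their median, 5.19, had 3.03% lower and 7.62% higher. Of 297 microRNA genes 20 were lower and 0 higher by more than 1.5-fold, against 2.7% and 0.873% of all genes. The number of lower names was 22 when a gene had to exceed a linear signal of 100 in at least 1 sample, and the number of higher ones was 42 to 55 after a second quantile normalization or with arrays centred on all probe sets and 31 in 1 fit over all 18 samples. A probe set covers the hairpin locus, so its signal is that of the precursor or of the host transcript and not of a mature arm. Mature sequences were found for 270 of 296 loci in RefSeq, and loci were grouped by the seed, bases 2 to 8 of the mature RNA, with which a microRNA pairs to its targets.

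Seed groups were kept only where at least 2 loci with a common seed were lower. Groups of higher loci were not sought, and the seeds shared by several measured loci were not counted. The rule gave 7 groups. Mature RNAs of lower loci are shown for 5 of these groups, to make the shared seeds visible, and for Mir218-1 and Mir301, each 5′ to 3′ with the seed in capitals (RefSeq, GRCm38.p6). The loci were chosen after their values had been seen. The seeds of the remaining groups, UAUACAA and UCACUGA, lie on the opposite arm of lower let-7 and miR-181 loci that are among those shown. These groups therefore count the same lower loci again.
mmu-let-7d-5p: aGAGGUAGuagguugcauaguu
mmu-let-7e-5p: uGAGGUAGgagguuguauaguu
mmu-let-7f-5p: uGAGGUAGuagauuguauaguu
mmu-miR-98-5p: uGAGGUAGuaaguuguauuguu
mmu-miR-181a-5p: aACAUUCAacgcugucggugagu
mmu-miR-181b-5p: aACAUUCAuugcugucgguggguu
mmu-miR-99a-5p: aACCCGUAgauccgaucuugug
mmu-miR-100-5p: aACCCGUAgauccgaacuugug
mmu-miR-148b-3p: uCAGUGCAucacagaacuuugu
mmu-miR-152-3p: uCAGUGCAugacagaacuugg
mmu-miR-221-3p: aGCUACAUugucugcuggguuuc
mmu-miR-222-3p: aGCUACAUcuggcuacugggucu
mmu-miR-218-5p: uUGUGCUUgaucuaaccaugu
mmu-miR-301a-3p: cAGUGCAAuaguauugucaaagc

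The seed GAGGUAG of the let-7 family was carried by 9 measured loci, of which 4 were lower, 1 was higher and 4 did not pass. Mirlet7d read 6.41, 6.54, 7.19 and 6.63 in invading and 7.69, 7.498, 7.79 and 7.85 in non-invading samples, 2.02-fold lower (log2 ratio -1.01 ± 0.16 SE, adjusted p = 0.00334). Mirlet7e and Mirlet7f-1 were 1.53-fold lower and 1.54-fold lower, and Mir98 was 1.27-fold lower (adjusted p = 0.0451), a call lost without invading replicate 1 and without non-invading replicate 3 or 4. Mirlet7f-2 encodes the same mature RNA as Mirlet7f-1 and was 1.31-fold higher (adjusted p = 0.0481) with mean levels of 4.58 and 4.19, a call that was lost without non-invading replicate 4. Loci for 1 mature sequence thus gave opposite signs.

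The seed ACAUUCA of the miR-181 family was carried by 6 loci, of which 3 were lower and 3 did not pass. Mir181b-2 had levels of 5.72, 5.65, 6.45 and 5.74 in invading and 7.30, 6.76, 7.59 and 7.69 in non-invading samples, 2.73-fold lower (log2 ratio -1.45 ± 0.23 SE, adjusted p = 0.00351), and invading replicate 3 lay nearest to the non-invading range. Its relatives Mir181b-1 and Mir181a-2 were 2.01-fold lower and 1.6-fold lower. Both loci with the seed GCUACAU were lower, Mir221 at 2.14-fold lower (log2 ratio -1.10 ± 0.16 SE, adjusted p = 0.00216) and Mir222 at 1.58-fold lower (log2 ratio -0.66 ± 0.13 SE, adjusted p = 0.00928), and they lie close together on the X chromosome. With the seed ACCCGUA Mir99a was 2.02-fold lower and Mir100 1.47-fold lower, while Mir99b with the same seed did not pass (log2 ratio -0.03, adjusted p = 0.838). Mir148b and Mir152 shared CAGUGCA and were 1.43-fold lower and 1.27-fold lower, and Mir148a, also of that seed, did not pass (log2 ratio 0.03, adjusted p = 0.841) at a mean level of 3.84.

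Mir218-1 read 5.96, 5.99, 6.11 and 6.14 in invading and 7.10, 6.67, 7.88 and 7.98 in non-invading samples. The invading samples lay within 0.2 log2 units of each other and the non-invading ones spread over more than 1, and the level was 2.56-fold lower (log2 ratio -1.36 ± 0.26 SE, adjusted p = 0.00752). Mir301 was 2.39-fold lower (log2 ratio -1.26 ± 0.17 SE, adjusted p = 0.00189), and Mir143, which is transcribed together with Mir145a in many mesenchymal cells, was 2.55-fold lower (log2 ratio -1.35 ± 0.22 SE, adjusted p = 0.00358). The host transcripts of microRNAs named here are a pair picked after their values were seen, and hosts were not counted as a class. Mir100hg, the host of Mir100, had levels of 8.90, 8.53, 8.73 and 9.05 against 10.43, 9.99, 10.50 and 10.47 and was 2.92-fold lower (log2 ratio -1.54 ± 0.14 SE, adjusted p = 0.000469), and Dnm3os, a host of miR-199 and miR-214, was 2.6-fold lower (log2 ratio -1.38 ± 0.23 SE, adjusted p = 0.00446).

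Of 16 nuclear and host long non-coding RNAs 7 were lower (43.75%) and 5 higher (31.25%), with log2 ratios from -1.14 to 2.05 over the list. The level group of their median, 10.33, had 24.6% of all genes lower and 20% higher. On the linear scale the list summed to 44920 to 47000 in invading and 37080 to 38260 in non-invading samples. The examples that follow are lower ones. Malat1, a retained RNA of nuclear speckles, read 11.25, 10.87, 11.48 and 11 in invading and 12.03, 11.81, 12.02 and 12.10 in non-invading samples, 1.79-fold lower (log2 ratio -0.84 ± 0.13 SE, adjusted p = 0.00319). Tug1 was 1.66-fold lower (log2 ratio -0.73 ± 0.08 SE, adjusted p = 0.001), and Firre, which is not in that list and organises contacts between chromosomes, was 2.56-fold lower (log2 ratio -1.36 ± 0.15 SE, adjusted p = 0.000895) with invading values from 7.59 to 7.65 and non-invading values from 8.64 to 9.33.

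Splicing regulators were lower for 27 (42.2%) and higher for 5 (7.81%) of 64, with a median log2 ratio of -0.11. The level group of their median, 10.10, had 24.6% of all genes lower and 20% higher. The 5 higher ones became 3 without invading replicate 2, without invading replicate 4 or without non-invading replicate 4. Clk4, a kinase that phosphorylates SR proteins, had levels of 8.04, 8.05, 8.59 and 8.40 in invading and 8.93, 8.88, 9.36 and 9.64 in non-invading samples, 1.91-fold lower (log2 ratio -0.94 ± 0.19 SE, adjusted p = 0.00961). Ptbp2, a repressor of neuronal exons, was 1.92-fold lower (log2 ratio -0.94 ± 0.14 SE, adjusted p = 0.00225), and Pnisr, an SR-related protein, was 1.88-fold lower (log2 ratio -0.91 ± 0.13 SE, adjusted p = 0.00214). Srsf9 and U2af1 were among those higher, with ratios of 1.38 (adjusted p = 0.0155) and 1.25 (adjusted p = 0.0105).

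Histone modifiers and remodellers were lower for 28 (41.2%) and higher for 7 (10.3%) of 68. The level group of their median, 9.50, had 24.6% of all genes lower and 20% higher. The 7 higher ones became 4 without invading replicate 1, without invading replicate 2 or without non-invading replicate 3. They became 11 to 12 after a second quantile normalization or with arrays centred on all probe sets. Smarca2, an ATPase of the SWI/SNF remodeller, read 8.78, 8.81, 8.90 and 8.52 in invading and 9.43, 9.34, 9.58 and 9.71 in non-invading samples, 1.70-fold lower (log2 ratio -0.76 ± 0.11 SE, adjusted p = 0.00203). Its paralogue Smarca4 did not pass (log2 ratio 0.06, adjusted p = 0.664). Tet2, which oxidises methylated cytosine, was 1.72-fold lower (log2 ratio -0.78 ± 0.12 SE, adjusted p = 0.00243), whereas Hdac5, a histone deacetylase that shuttles in and out of the nucleus, was 1.62-fold higher (log2 ratio 0.70 ± 0.10 SE, adjusted p = 0.00217), and Ehmt2, a methyltransferase of histone H3, was 1.36-fold higher (log2 ratio 0.44 ± 0.06 SE, adjusted p = 0.00212).

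Zinc finger genes with Zfp symbols were lower for 108 (31.1%) and higher for 27 (7.78%) of 347. The level group of their median, 7.54, had 14.5% of all genes lower and 14.7% higher. After a second quantile normalization or with arrays centred on all probe sets, 44 to 47 of the list were higher. Zfp329, of unknown targets, read 7.07, 7.01, 7.52 and 6.90 in invading and 8.06, 8.14, 8.40 and 8.502 in non-invading samples, 2.22-fold lower (log2 ratio -1.15 ± 0.15 SE, adjusted p = 0.00154). Zfp503, a repressor of development, was 1.39-fold higher (log2 ratio 0.48 ± 0.07 SE, adjusted p = 0.00239). Across all genes the share of lower ones moved with the length of the gene and with its signal. In 5 equal groups of protein-coding genes ordered by genomic span, with medians of 2.23, 8.81, 19.2, 39.8 and 116 kb, 4.39%, 9.30%, 14.3%, 20.8% and 20.5% were lower and 12.6%, 16.7%, 14.3%, 12% and 10.6% higher. In 5 equal groups of all genes ordered by mean level, 1.05%, 3.03%, 14.5%, 24.6% and 24.6% were lower, with 3.94%, 7.62%, 14.7%, 18.7% and 20% higher, and the part of span or level in the calls of single groups was not tested.

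Growth factor signalling genes moved in opposite directions within families. Tgfb1, the cytokine that drives matrix production by fibroblasts, read 10.59, 10.71, 10.41 and 10.32 in invading and 9.44, 9.21, 9.24 and 9.09 in non-invading samples. It was 2.40-fold higher (log2 ratio 1.26 ± 0.11 SE, adjusted p = 0.000355), and at 96 hours its log2 ratio was 1.72. Its receptor Tgfbr2 had levels of 10.79, 10.80, 10.73 and 10.89 against 11.27, 11.17, 11.09 and 11.13 and was 1.29-fold lower (log2 ratio -0.36 ± 0.07 SE, adjusted p = 0.00632), while Tgfbr1 did not pass (log2 ratio -0.23, adjusted p = 0.156). Pmepa1, a feedback target of this pathway, was 1.23-fold higher (log2 ratio 0.30 ± 0.08 SE, adjusted p = 0.0342).

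In the activin branch both ligand and antagonist were lower. Inhba, the subunit of activin A, read 9.27, 9.21, 8.81 and 8.24 in invading and 10.21, 9.79, 9.56 and 9.34 in non-invading samples, 1.79-fold lower (log2 ratio -0.84 ± 0.25 SE, adjusted p = 0.0422). Fst, which binds and neutralises activin, had levels of 8.25, 7.99, 8.41 and 8.54 against 9.51, 9.77, 9.46 and 9.52 and was 2.41-fold lower (log2 ratio -1.27 ± 0.12 SE, adjusted p = 0.000544) without overlap. In all 7 of 30 TGF-beta pathway genes were lower (23.3%) and 4 higher (13.3%), and 7 to 9 were higher after centring, after a second quantile normalization or with a limit on signal. The level group that holds their median of 9.17 had 24.6% of all genes lower and 18.7% higher.

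In the BMP pathway 4 of 27 genes were lower (14.8%) and 1 higher (3.7%), against 13.6% and 13.0% of all genes, and 0 to 5 were higher under the alternatives. The share of lower genes was thus near that of all genes. Bmp4, the ligand, was 3.79-fold lower (log2 ratio -1.92 ± 0.28 SE, adjusted p = 0.00243), and of its receptors Bmpr1a read 10.37, 10.35, 10.60 and 10.28 in invading and 11.17, 11.02, 11.27 and 11.35 in non-invading samples, 1.74-fold lower (log2 ratio -0.80 ± 0.10 SE, adjusted p = 0.0012), while Bmpr2 was 1.46-fold lower (log2 ratio -0.54 ± 0.13 SE, adjusted p = 0.0184). Smad5, which carries the signal to the nucleus, was 1.2-fold lower (log2 ratio -0.26 ± 0.07 SE, adjusted p = 0.0364), a call lost when arrays were centred on all probe sets.

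Wnt genes were lower for 10 (20.4%) and higher for 5 (10.2%) of 49, against 14.5% and 14.7% of all genes in the level group of their median, 7.80. With a second quantile normalization or with arrays centred on all probe sets 13 were higher. Sfrp1, a secreted antagonist, read 9.33, 9.81, 9.83 and 9.91 in invading and 10.74, 11.09, 11.16 and 11.53 in non-invading samples, 2.66-fold lower (log2 ratio -1.41 ± 0.18 SE, adjusted p = 0.00138). Lef1, a nuclear effector of the pathway, had levels of 9.45, 9.40, 9.17 and 8.83 against 8.70, 8.25, 8.47 and 8.23 and was 1.74-fold higher (log2 ratio 0.80 ± 0.15 SE, adjusted p = 0.0078). Tcf7l2, an effector of the same family, was 1.56-fold lower (log2 ratio -0.65 ± 0.09 SE, adjusted p = 0.00225), and Wnt6, a ligand, was 1.37-fold higher (log2 ratio 0.46 ± 0.07 SE, adjusted p = 0.00308).

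Receptors for growth factors also differed in direction. Fgfr1 read 11.74, 11.87, 11.61 and 11.57 in invading and 11.28, 11.28, 11.27 and 11.32 in non-invading samples, 1.33-fold higher (log2 ratio 0.41 ± 0.08 SE, adjusted p = 0.00687), and Pdgfrb, the receptor for PDGF-B, was 1.21-fold higher (log2 ratio 0.27 ± 0.08 SE, adjusted p = 0.0377). Pdgfra did not pass (log2 ratio -0.13, adjusted p = 0.438). Met, the receptor for hepatocyte growth factor, had levels of 9.09, 9.22, 9.24 and 8.95 against 10.06, 10.08, 9.81 and 9.75 and was 1.74-fold lower (log2 ratio -0.80 ± 0.10 SE, adjusted p = 0.00144), and Egfr was 1.35-fold lower (log2 ratio -0.43 ± 0.09 SE, adjusted p = 0.00895). Ddr2, a receptor that binds fibrillar collagen itself, was 1.37-fold lower (log2 ratio -0.45 ± 0.09 SE, adjusted p = 0.00914).

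Of the ligands Pdgfb was 1.55-fold higher (log2 ratio 0.63 ± 0.13 SE, adjusted p = 0.00953), Vegfb 1.31-fold higher (log2 ratio 0.39 ± 0.06 SE, adjusted p = 0.00291) and Angpt2, which opposes the receptor Tie2, 1.70-fold higher (log2 ratio 0.76 ± 0.15 SE, adjusted p = 0.00732). Igf1, the growth factor whose receptor Igf1r was itself 1.32-fold lower, read 7.80, 7.87, 8.36 and 8.72 in invading and 9.46, 9.53, 9.42 and 9.64 in non-invading samples. Its level was 2.51-fold lower (log2 ratio -1.33 ± 0.19 SE, adjusted p = 0.00212), with invading replicates 3 and 4 above replicates 1 and 2 and no overlap. Vegfd was 1.49-fold lower (log2 ratio -0.57 ± 0.12 SE, adjusted p = 0.0126).

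Guidance molecules, which steer axons and migrating cells, were higher for 8 and lower for 8 of 45 (17.8% each, against 18.7% and 24.6% of all genes in the level group that holds their median of 8.55), and the 8 higher ones became 5 without invading replicate 2 or without non-invading replicate 3 and 14 with arrays centred on all probe sets. Sema3a, a secreted repellent, read 7.90, 8.17, 8.28 and 7.89 in invading and 9.19, 9.27, 9.24 and 9.19 in non-invading samples, 2.24-fold lower (log2 ratio -1.16 ± 0.10 SE, adjusted p = 0.000355). Plxnd1, a receptor for class 3 semaphorins, had levels of 10.68, 10.63, 10.44 and 10.30 against 10.10, 9.96, 9.77 and 9.90 and was 1.49-fold higher (log2 ratio 0.58 ± 0.10 SE, adjusted p = 0.00555). Epha4, a receptor for ephrins, was 1.78-fold lower (log2 ratio -0.83 ± 0.09 SE, adjusted p = 0.000907).

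Adgrg6, an adhesion receptor that binds collagen IV and laminin, shared the lowest adjusted p of all genes. It read 7.92, 7.84, 7.98 and 8.09 in invading and 9.49, 9.51, 9.29 and 9.39 in non-invading samples, 2.76-fold lower (log2 ratio -1.46 ± 0.08 SE, adjusted p = 7.24e-05), and the fractions were more than 1 log2 unit apart at their closest. Of 38 adhesion and other G protein-coupled receptors 8 were lower (21.1%) and 1 higher (2.63%), against 13.6% and 13.0% of all genes. Lower members included Adgrl3 (log2 ratio -0.57, adjusted p = 0.00584), Gprc5a (log2 ratio -0.90, adjusted p = 0.00549) and the lysophosphatidic acid receptor Lpar4 (log2 ratio -0.58, adjusted p = 0.0059).

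The gene with the same adjusted p was Sike1, which restrains the kinases TBK1 and IKK-epsilon in antiviral signalling. Its values were 8.35, 8.36, 8.26 and 8.29 in invading and 9.93, 9.65, 9.85 and 9.90 in non-invading samples, 2.87-fold lower (log2 ratio -1.52 ± 0.08 SE, adjusted p = 7.24e-05). Tank, a scaffold of the same kinases, read 9.02, 8.93, 9.19 and 9.04 against 10.06, 9.94, 9.97 and 10.11 and was 1.96-fold lower (log2 ratio -0.97 ± 0.07 SE, adjusted p = 0.000261). In the wider list of innate sensing and NF-kB genes 13 of 35 were higher (37.1%) and 5 lower (14.3%). The level group of their median, 8.91, had 18.7% of all genes higher and 24.6% lower. Without non-invading replicate 2 the number of higher members was 8. Tlr2, a receptor for bacterial lipoproteins, had levels of 8.58, 8.37, 8.21 and 8.29 in invading and 7.44, 7.48, 7.91 and 7.90 in non-invading samples and was 1.61-fold higher (log2 ratio 0.68 ± 0.13 SE, adjusted p = 0.00756). Myd88, the adaptor of this receptor, was 1.33-fold higher (log2 ratio 0.41 ± 0.08 SE, adjusted p = 0.00661), and Ticam1, the adaptor of Tlr3, 1.37-fold higher (log2 ratio 0.45 ± 0.10 SE, adjusted p = 0.0161), while Tlr3 itself was 1.27-fold lower (log2 ratio -0.35 ± 0.09 SE, adjusted p = 0.0208).

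Transcription factors of mesenchyme and lung were higher for 13 and lower for 13 of 57 (22.8% each). These shares were near the 18.7% and 24.6% of all genes in the level group that holds their median of 8.76. Osr1, a factor of embryonic lung and connective tissue, read 10.54, 10.49, 10.70 and 10.45 in invading and 11.57, 11.71, 11.69 and 11.48 in non-invading samples, 2.10-fold lower (log2 ratio -1.07 ± 0.08 SE, adjusted p = 0.000261). Foxf1 and Foxf2, close relatives that mark lung mesenchyme, went in opposite directions, each measured by its brightest probe set. The size for Foxf1 differed between the alternatives, which include the mean over a gene's probe sets. Its log2 ratio was -0.23 in the alternative where it was weakest, although it passed under every alternative. Foxf1 had levels of 10.12, 10.31, 10.28 and 10.36 against 10.75, 10.74, 10.80 and 10.81 and was 1.42-fold lower (log2 ratio -0.51 ± 0.07 SE, adjusted p = 0.00184), and Foxf2 had levels of 8.98, 9.04, 8.77 and 8.97 against 8.62, 8.45, 8.32 and 8.48 and was 1.39-fold higher (log2 ratio 0.47 ± 0.09 SE, adjusted p = 0.00609). Sox9 was 1.44-fold higher (log2 ratio 0.53 ± 0.10 SE, adjusted p = 0.00847), Twist1 1.33-fold higher and Twist2 1.42-fold higher, while Snai2 was 1.33-fold lower (log2 ratio -0.41 ± 0.09 SE, adjusted p = 0.0137). Prrx1, a mesenchymal homeobox factor, did not pass and had a log2 ratio of -0.17 (adjusted p = 0.171).

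The genes with the lowest p in each direction belonged to many functions. Ddx41, a DEAD-box protein that also senses DNA, read 10.38, 10.42, 10.13 and 10.14 in invading and 9.21, 9.14, 9.07 and 9.01 in non-invading samples, 2.24-fold higher (log2 ratio 1.16 ± 0.09 SE, adjusted p = 0.000261). Scarf2, a scavenger receptor family member, had levels of 10.81, 10.92, 10.71 and 10.66 against 9.70, 9.69, 9.86 and 9.90 and was 1.99-fold higher (log2 ratio 0.99 ± 0.08 SE, adjusted p = 0.000355). Fam102a, Nbl1, Mroh1 and Amdhd2 were 2.22-fold higher, 1.90-fold higher, 1.74-fold higher and 1.78-fold higher, each without overlap.

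Among the lower ones Lbr, which anchors chromatin to the nuclear envelope and reduces a sterol intermediate, read 9.28, 9.12, 9.25 and 9.29 in invading and 10.34, 10.35, 10.26 and 10.15 in non-invading samples, 2.05-fold lower (log2 ratio -1.04 ± 0.07 SE, adjusted p = 0.000221). Snap23, which drives fusion of vesicles with the plasma membrane, had levels of 10.06, 10.05, 10.26 and 9.97 against 11.06, 11.03, 11.16 and 11.19 and was 2.03-fold lower (log2 ratio -1.02 ± 0.08 SE, adjusted p = 0.000261). Ift20, a carrier of cargo to the primary cilium, was 1.70-fold lower (log2 ratio -0.77 ± 0.06 SE, adjusted p = 0.000261) with a standard deviation of 0.04 in the invading and 0.02 in the non-invading samples. At 96 hours the log2 ratios were -0.51 for Lbr, -0.89 for Snap23 and -0.47 for Ift20.

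**Figure D5:**
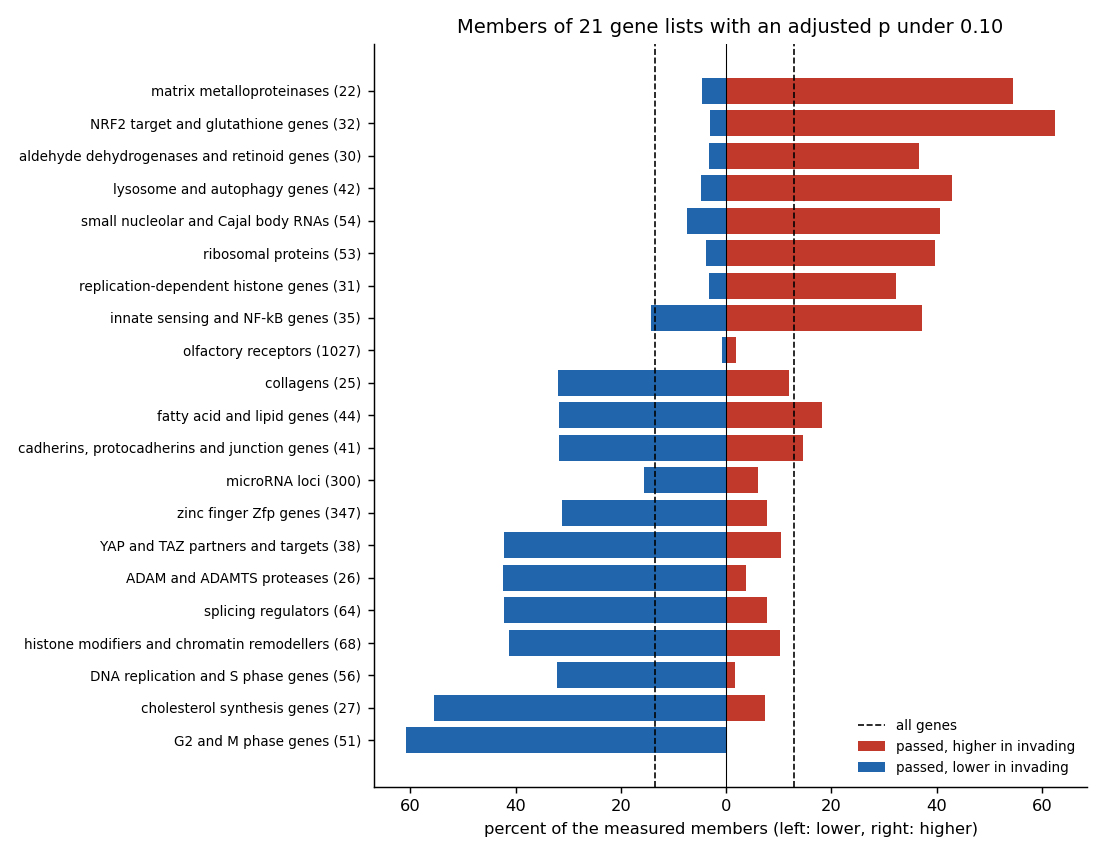
Bars give the percent of the measured members of 21 gene lists (number measured in parentheses) that passed as higher in invading cells to the right and as lower to the left, and the dashed lines mark the 13.0% and 13.6% of all genes. NRF2 targets reach furthest to the right with 20 of 32 members and G2 and M phase genes furthest to the left with 31 of 51, and olfactory receptors, which have low signal, stay below both lines.

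Olfactory receptors, which detect odorants in nasal neurons, lay near the lower end of the signal range, with a median level of 4.46 and 16 of 1027 members above a linear signal of 100. Of the 1027 members 20 were higher (1.95%) and 7 lower (0.682%), against 3.94% and 1.05% of all genes in the lowest of the 5 level groups. That count moved with the scaling and with single samples, to 115 higher with arrays centred on all probe sets to 12 higher without non-invading replicate 1 and to 10 higher without non-invading replicate 2, and 24 were lower without non-invading replicate 1. At 96 hours 3324 of all genes were higher (16.7%) and 2937 lower (14.7%), and of the lists described here the metalloproteinases had 11 higher and 1 lower member at that time.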

How the data were processed

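RNA of invading and non-invading MLg 2908 fibroblasts was profiled on 1 array per sample, and the labels call the replicates biological. Per the submitters' processing notes the authors summarised the scanner signals with Affymetrix Expression Console 1.2 (RMA: background correction, quantile normalization and probe set summary), and the deposited table holds log2 values for 35556 probe sets in 18 samples. Arrays report no read depth, and 4 samples per fraction limit the precision. Scan or hybridisation batches were not given in the sources used here.

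Probe sets were named through the platform annotation: 21789 carried 1 gene symbol, 1621 several and 12146 none, and 19856 of the 19938 genes were matched through their Entrez number. Where a gene had several probe sets the brightest at 72 hours stood for it. Deposited log2 values of the 8 samples were fitted with limma 3.58.1 in R 4.3.3 (lmFit and eBayes), with Benjamini-Hochberg adjustment over all probe sets, an adjusted p under 0.10 as the threshold and no replicate block. The 10 samples of 96 hours were fitted in the same way on their own. The script was tested on simulated data.

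Named genes were the 20 highest and 20 lowest ratios without overlap, the 10 lowest p in each direction beyond 1.5-fold, up to 4 members per direction and the members with the highest level that did not pass from each of 77 lists, and receptors and factors tested by the study. Other genes are said to have been picked after their values were seen. The genes, lists and comparison were chosen with earlier results of these data known, so counts within lists are descriptions. Across 7 lists the 250 bases before the start of 15563 measured genes were searched on both strands for 16 strings. Those with a result in the text are the AP-1 site TGACTCA, the NF-Y box CCAAT, the CHR forms TTTGAA and TTTAAA, the sterol core TCACNCCAC and the CLEAR element CACGTGAC, which overlaps the E-box CANNTG. The others were the antioxidant core TGACNNNGC and its shorter form TGANNNNGC, the TEAD site GGAATG, the AP-1 form TGANTCA, the E2F site TTTCGCGC, the ETS site CTTCCG, the E-box alone, a full sterol element, an extended CLEAR element and a CArG box. Alternatives were a second quantile normalization, centring of arrays, a limit on signal, an intensity trend and robust variance, 1 joint fit of the 18 samples, other choices of probe sets, the replicate number as a block, an adjusted p under 0.05 and the omission of each sample in turn.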

Additional observations from a re-analysis of the deposited data

Results flagged for a closer look

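A sample far from the other 3 of its fraction was seen in 22 of 404 groups of 4 values, and chance alone flags about 1 in 20 groups, so the number is near that share. Among matrix and protease genes, Fbln5 stood at 11.63 in invading replicate 2 against 11.75 to 11.77 in the others, Mmp16 at 7.65 in non-invading replicate 2 against 7.88 to 7.90, and Mmp1a at 4.42 in non-invading replicate 2 against 4.21 to 4.22. Invading replicate 4 read 12.016 for Col1a1 against 12.29 to 12.302 in the others, 12.142 for Col1a2 against 12.31 to 12.335 and 11.635 for Col3a1 against 11.86 to 11.891. Ddr2, the collagen receptor, stood at 10.223 in invading replicate 4 against 10.53 to 10.58. Of signalling genes, Angpt2 read 8.100 in invading replicate 2 against 7.46 to 7.48, Sfrp1 9.326 in invading replicate 1 against 9.81 to 9.91, Vegfd 12.13 in non-invading replicate 4 against 11.82 to 11.85, and Tlr3 7.835 in non-invading replicate 1 against 7.63 to 7.66. The transcription factor Twist1 read 8.424 in non-invading replicate 4 against 8.72 to 8.77, the desaturase Scd1 10.184 in non-invading replicate 2 against 10.48 to 10.51, the iron reductase Steap3 10.922 in non-invading replicate 1 against 10.82 to 10.83, and the fibroblast marker Fap 4.837 in invading replicate 3 against 4.46 to 4.49.

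Small and host RNAs gave the rest. Invading replicate 3 was highest of its fraction for Mir181b-2 at 6.448 against 5.65 to 5.74, for Mir301 at 4.944 against 4.46 to 4.51 and for Mir99a at 5.933 against 5.34 to 5.41. Invading replicate 1 read 8.014 for Mir99b against 7.87 to 7.89 and 6.916 for Mir143 against 6.40 to 6.49. Mir100hg stood at 9.992 in non-invading replicate 2 against 10.43 to 10.50. The widest gap was that of Snora20, at 7.440 in invading replicate 1 against 9.21 to 9.51 in the other invading samples.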

How the results depend on the processing

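The number of genes that passed as higher, 2589 on the deposited scale, was 5045 after a second quantile normalization, 5034 with arrays centred on all probe sets and 1651 at an adjusted p under 0.05, and genes higher by more than 1.5-fold went from 174 to 284 with arrays centred on all probe sets. The remaining counts stayed within 1.5 times their main value under every alternative. When each sample was left out in turn, 1839 to 2483 genes passed as higher and 2149 to 2682 as lower. Beyond 1.5-fold these ranges were 135 to 216 and 475 to 662, and beyond 2-fold 17 to 31 and 71 to 97. Deviations from the fraction means of samples with the same number correlated at -0.0746, 0.0871, 0.027 and -0.0183. With 4 samples per fraction these values cannot tell whether samples of the same number were paired. The study names a paired t-test for the receptor levels it took from these arrays. With the replicate block 1920 genes passed as higher and 2333 as lower, 172 and 540 beyond 1.5-fold and 22 and 83 beyond 2-fold. Named genes were chosen from these same data, many of them by large ratios or low p. How many of them kept their call therefore does not stand for all genes that passed. Of all genes, 2589 passed as higher and 2704 as lower in the main fit, against 1651 and 2071 at an adjusted p under 0.05. Of 170 named genes that passed, 157 passed under every alternative. Another 11 lost their call when 1 sample was left out, 6 of them also with the replicate block, Cd14 lost its call in 1 fit over all 18 samples and Smad5 with arrays centred on all probe sets, and none of the named genes changed direction with a call. The cause of these shifts was not tested. Centring moved the median log2 ratio of all genes from 0.04 to at most 0.12. Genes with signal near the lower end of the array carry little information, and 11794 of the 19938 genes exceeded a linear signal of 100 in at least 1 sample.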
